A study of Mus musculus with 4 samples.

Results

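The genes described here encode the machinery that copies DNA in S phase. They were chosen by name: 42 genes for origin recognition and licensing, the replicative helicase, the polymerases and primase, the sliding clamp and its loader, single-strand binding, Okazaki fragment joining and nucleotide supply. All non-control probes of the arrays that carry one of these names were taken, which gave 66 of 41174 gene probes, for 42 of 28476 gene names. Probes for 16 of the genes were present more than once. Induced pluripotent stem (iPS) cells (2 arrays) and mouse embryonic fibroblasts (MEFs, 2 arrays), in the red channel, were set against the mouse embryonic stem (ES) cell line CGR8.8, which was in the green channel of all 4 arrays. The iPS cells were 1 clone, harvested 30 days after transduction and grown, as the ES cells were, in 1000 IU/ml LIF (leukemia inhibitory factor). The MEFs had been passaged several times. The labels number the arrays of each group as biological replicates without saying whether the cultures were separate, so a p-value here weighs only how far these samples scatter, part of which may be technical.

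Replication starts at origins bound by the origin recognition complex, on which Cdc6 and Cdt1 load the MCM helicase. Kinases and further factors then switch the helicase on, primase and the polymerases copy both strands, and the PCNA clamp keeps the polymerases on the template. Most of these genes are transcribed in proliferating cells at the passage into S phase, under the control of E2F factors, and mouse ES cells are known for a short cell cycle with a large share of cells in S phase.

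Values are log2 ratios over the ES RNA of the same array, so 1 is 2-fold, and errors are standard errors of a limma fit (n = 2 arrays per group). A call means a change of at least 2-fold and an adjusted p under 0.05 (Benjamini-Hochberg, over 24874 probes tested), and each gene was read from its brightest tested probe (17619 genes). The replicate arrays correlated across probes at 0.989 for MEFs and 0.992 for iPS cells, and 59.2% to 61.5% of gene probes stood well above background in either channel. Of the pluripotency markers measured, all 8 were lower in MEFs than in ES cells, and in iPS cells 5 of 8 were higher and 1 was lower than in ES cells. Of 9 fibroblast markers, 8 were higher in MEFs than in ES cells, and 7 were lower in iPS cells than in ES cells. Of 6 macrophage markers, 2 were higher in MEFs than in ES cells (log2 ratios of all 6 from -1.69 to 4.88) and 1 was lower. Of 4 endothelial markers, 1 was higher in MEFs than in ES cells (Emcn) and 1 lower (log2 ratios of all 4 from -1.545 to 5.072). In iPS over ES cells 2 of the 6 macrophage markers were lower and 0 higher (-1.36 to 0.04), and of the endothelial markers 2 were higher and 1 lower (-4.10 to 2.09). The part of such cells in the replication results was not tested.

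Of the 42 genes, 38 had a tested probe. In MEFs, 31 of the 38 were lower than in ES cells, 1 was higher and 6 were not called (Fen1, Orc3l, Pole2, Rfc3, Rrm1 and Rrm2). The median of the 38 was -1.87, which is 3.65-fold lower in MEFs than in ES cells, and values ran from -3.06 for Cdt1 to 1.65 for Prim2. Both MEF arrays lay below 0 for 37 of the 38 genes, as for 47.5% of all genes tested. Over all genes tested, 13.6% were lower and 13.8% higher in MEFs, with a median of -0.01, and at any fold 83.1% had an adjusted p under 0.05, against 37 of the 38 replication genes. The standard errors of the replication genes were between 0.046 and 0.078, and the adjusted p of the called ones (limma) was at most 6.63e-07. In bulk RNA, fewer cells in S phase and less RNA per cell cannot be told apart. The count rests on how the background was corrected. With the normexp fit taken over all spots, 0 of the 38 genes were called by limma (21 at an unadjusted p under 0.05) and the median was -1.24. Of all 17619 genes, 0 were called in MEFs over ES cells with that normexp fit (2146 at an unadjusted p under 0.05, limma). On the array of MEF replicate 1, 14 spots had a local background above 500, with a highest value of 694663, and they enter that fit. On the scanner software's processed signals, which do not pass through normexp, 34 of the 38 were called, as were 7400 of all 17619 genes (4830 in the reported fit). With the marked spots left out, 32 were called without MEF replicate 1, where the lone MEF array is assumed to vary like the iPS arrays. With arrays centred on their median in place of loess, 23 genes were called lower in MEFs, and Dut, Orc2l, Pcna, Pold1, Pold2, Rfc2, Rpa1 and Rpa3 were not, at log2 ratios from -0.96 (Orc2l) to -0.48 (Dut).

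In iPS cells, 5 of the 38 genes were higher than in ES cells (Prim2, Pole2, Dut, Pold1 and Gmnn), 0 were lower and 33 were not called. The median was 0.40, or 1.32-fold higher in iPS cells than in ES cells, and values ran from -0.55 for Cdc6 to 2.68 for Prim2. Both iPS arrays lay above 0 for 32 genes and below 0 for the other 6 (Cdc6, Orc6l, Rfc1, Rfc4, Rrm1 and Tyms). Among all genes tested, both iPS arrays lay above 0 for 47.1%. At the threshold for a call, 9.08% of all genes were higher and 11.8% lower in iPS cells than in ES cells, with a median of 0.01. The 5 higher replication genes are 13.2% of the 38, against that 9.08%, and 0 of the 38 were lower, against that 11.8%. At any fold, 36 of the 38 replication genes had an adjusted p under 0.05 in iPS over ES cells, against 79.4% of all genes. With arrays centred on their median, 18 of the 38 were called higher in iPS than in ES cells and 0 lower, while the median of all genes moved to 0.17. Of all 17619 genes, 4197 were then called, 62.5% of them higher, against 3677 and 43.5% in the reported fit. That centring also put 5 of the 6 genes above 0 (Orc6l, Rfc1, Rfc4, Rrm1 and Tyms, none of them called), and in MEFs it put Orc3l and Rrm2 above 0, also not called.

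Set against MEFs through the shared ES channel, iPS cells had more RNA of all 38 genes. Of these, 36 were called higher, 0 lower, and Rrm1 and Rrm2 were not called. The median was 2.21, or 4.63-fold higher in iPS cells than in MEFs, and values ran from 0.46 for Rrm1 to 3.27 for Pold3. For all 38 genes the lower iPS array lay above the higher MEF array, which held for 46% of all genes tested. For 31 of them both iPS arrays lay above 0 and both MEF arrays below 0, as for 21.6% of all genes. Among all genes, 17% were higher and 18.8% lower in iPS cells than in MEFs, with a median of 0.03, and at any fold 80.6% had an adjusted p under 0.05. With the normexp fit over all spots, 14 of the 38 genes were called higher in iPS cells than in MEFs and the median was 1.69. Of all 17619 genes, 2150 were then called in that comparison, 46.6% of them higher, against 6308 and 47.4% in the reported fit. Comparisons over ES cells share the ES channel on each array, and no dyes were swapped on these arrays, so a dye effect particular to a gene is part of both ratios over ES cells and cancels between iPS cells and MEFs.

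**Figure D1:**
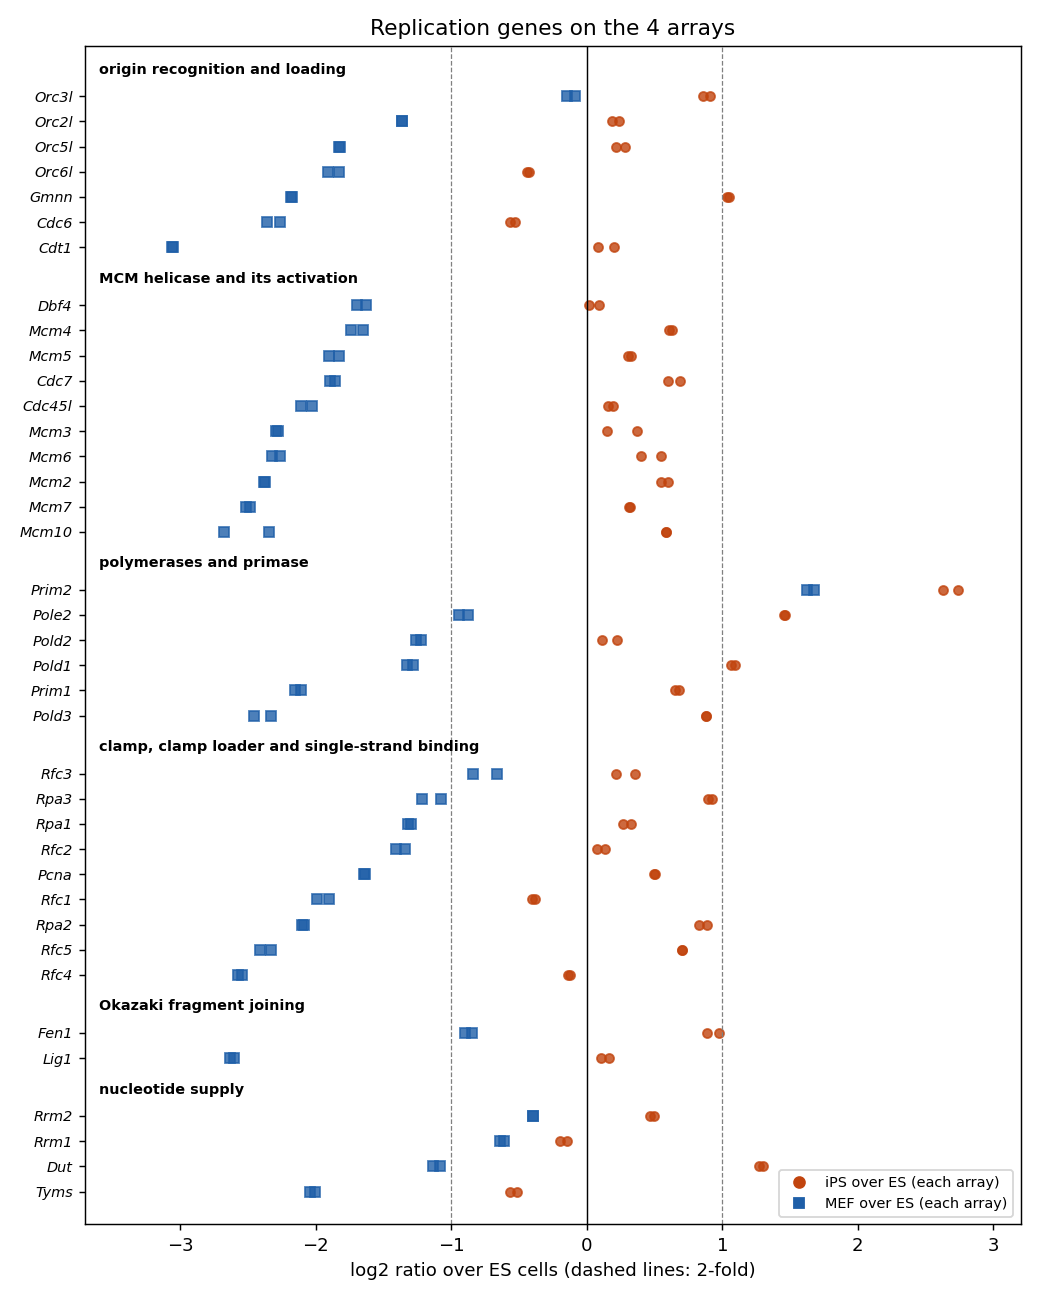
Log2 ratios over ES cells (x axis) of the 38 replication genes tested (y axis, by role), with 1 point per array: circles for the 2 iPS arrays and squares for the 2 MEF arrays. Both MEF arrays lie below 0 for 37 genes, Prim2 alone lies right of 0 in MEFs, and the iPS points lie above 0 for 32 genes.

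**Figure D2:**
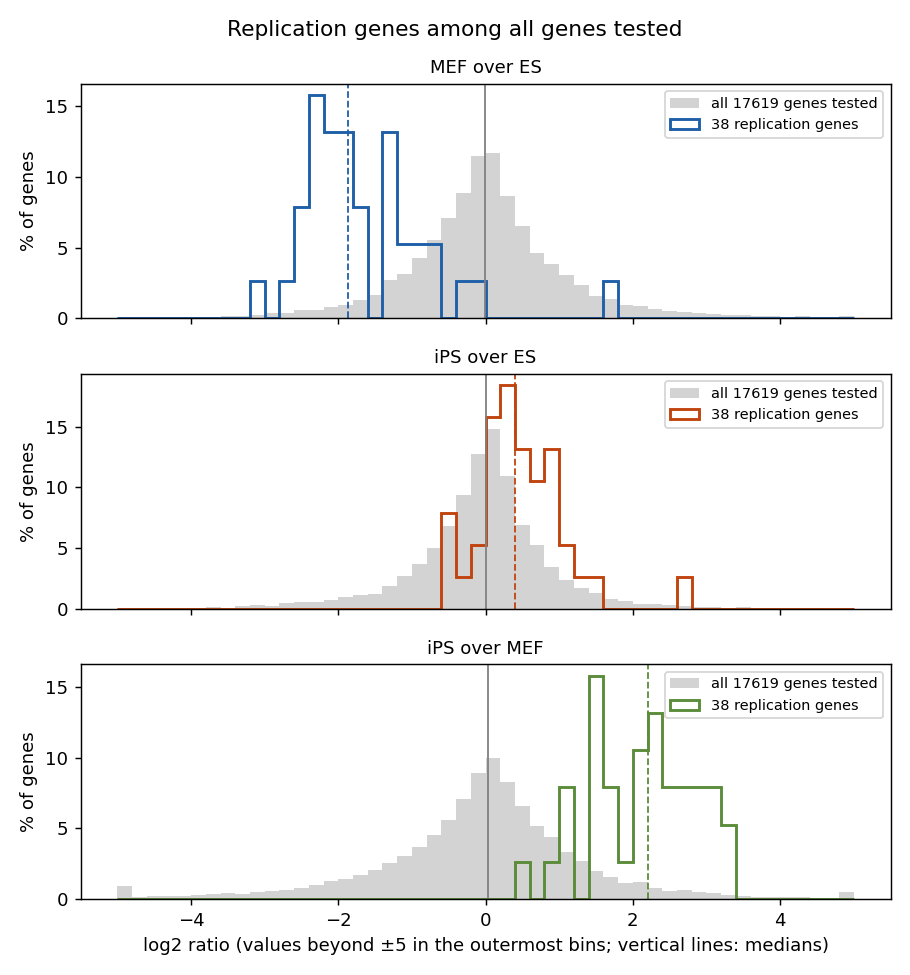
Share of genes in percent (y axis) by log2 ratio (x axis, bins of 0.2) for all 17619 genes tested (grey) and the 38 replication genes (outline), with medians as vertical lines (solid for all genes, dashed for the replication genes). The replication genes have medians of -1.87 in MEFs over ES cells, 0.40 in iPS over ES cells and 2.21 between iPS cells and MEFs, where all genes lie at -0.01, 0.01 and 0.03.

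Among the origin and licensing genes, 6 of 7 were lower in MEFs than in ES cells, and Gmnn was called higher in iPS than in ES cells. Medians were 0.21 in iPS over ES cells and -1.87 in MEFs over ES cells. Cdt1, which brings the MCM helicase to origins, had log2 ratios of 0.08 and 0.20 on the iPS arrays and -3.05 and -3.06 on the MEF arrays, the lowest MEF value of all 38 genes. Gmnn, whose product geminin binds and holds back Cdt1, had 1.05 and 1.04 on the iPS arrays and -2.17 and -2.18 on the MEF arrays. The inhibitor therefore moved with its target in MEFs, and in iPS cells only the inhibitor passed 2-fold over ES cells. In iPS cells over MEFs, Gmnn differed by 3.22 ± 0.07 (limma, adjusted p = 1.69e-08), the largest value of its group there. On the processed signals Gmnn was 0.95 in iPS over ES cells and not called. Cdc6, the loader that works with Cdt1, had -0.57 and -0.53 on the iPS arrays and -2.36 and -2.27 on the MEF arrays. Cdc6 thus held the lowest iPS ratio of the 38 genes, without reaching 2-fold. A second Cdc6 probe, left out of the tests because its spot on the array of iPS replicate 1 was marked, had 0.33 on the array of iPS replicate 2 and -2.28 and -2.26 on the MEF arrays, so the 2 probes of the gene lie on both sides of 0 in iPS cells and side by side in MEFs.

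The origin recognition complex did not move as a block. Orc2l, Orc5l and Orc6l, which encode its subunits Orc2, Orc5 and Orc6, were lower in MEFs than in ES cells at -1.36 ± 0.05, -1.82 ± 0.05 and -1.87 ± 0.05. Orc3l, which encodes the subunit Orc3, had 0.91 and 0.86 on the iPS arrays and -0.15 and -0.09 on the MEF arrays. Its MEF ratio did not pass the test (adjusted p = 0.0531, limma), and in iPS cells over MEFs it stood at 1.00 ± 0.07, on the 2-fold limit: without MEF replicate 1 it was 0.97 and not called, and without iPS replicate 1 it was 0.98. On the processed signals Orc3l was 1.05 in iPS over ES cells and called, and with median centring it was 1.18 and called. Orc3l had 5 tested probes. Another bright probe on the gene's strand gave 0.96 and 0.90 on the iPS arrays and -0.25 and -0.17 on the MEF arrays, close to the first. A dimmer probe on that strand gave 0.29 and -0.05 on the iPS arrays and 0.07 and 0.31 on the MEF arrays. The 2 remaining probes that carry the name read the opposite strand (mm8, chr4:34756589-34756648 and chr4:34758895-34758954) and were lower in iPS than in ES cells, at -0.73 ± 0.07 and -0.41 ± 0.06, neither of them past 2-fold. Averaged over its probes, Orc3l was 0.31 in iPS cells over MEFs and not called, while both bright probes on the gene's strand gave 1.00 and 1.14.

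The helicase genes changed evenly. All 10 genes of the helicase and its activation were lower in MEFs than in ES cells, with a median of -2.18, all 10 were higher in iPS cells than in MEFs, with a median of 2.53, and 0 of 10 were called in iPS over ES cells, where the median was 0.40. With median centring, 5 of them (Mcm2, Mcm4, Mcm6, Mcm7 and Mcm10) were called higher in iPS than in ES cells, at 1.11 to 1.39. Mcm2, Mcm3, Mcm4, Mcm5, Mcm6 and Mcm7 encode the ring that encircles and unwinds DNA. Mcm2 had 0.60 and 0.55 on the iPS arrays and -2.38 and -2.38 on the MEF arrays. Mcm3 had 0.37 and 0.15 on the iPS arrays and -2.28 and -2.29 on the MEF arrays. Mcm4 had 0.63 and 0.61 on the iPS arrays and -1.65 and -1.74 on the MEF arrays. The iPS and MEF arrays were thus far apart for each of these subunits, and in none of them did the iPS ratio reach 2-fold. Mcm5 had 0.33 and 0.31 on the iPS arrays and -1.90 and -1.83 on the MEF arrays. Mcm6 had 0.40 and 0.55 on the iPS arrays and -2.32 and -2.26 on the MEF arrays. Mcm7 had 0.31 and 0.32 on the iPS arrays and -2.52 and -2.49 on the MEF arrays. Across the subunits of the ring, MEF means ran from -2.50 (Mcm7) to -1.70 (Mcm4), and iPS means from 0.26 (Mcm3) to 0.62 (Mcm4). A second Mcm3 probe, not tested because of a marked spot on the array of iPS replicate 1, had -0.24 on the array of iPS replicate 2 and -2.56 and -2.59 on the MEF arrays.

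Mcm10, a scaffold that joins the helicase at initiation, had 0.58 and 0.59 on the iPS arrays and -2.68 and -2.35 on the MEF arrays, the lowest MEF mean of the helicase genes (-2.51 ± 0.08) and the largest difference between replicates of any of the 38 genes in MEFs (0.33, where the median was 0.05). It also had the group's highest value in iPS cells over MEFs, 3.09 ± 0.11. Cdc45l, which encodes the helicase cofactor Cdc45, had 0.19 and 0.15 on the iPS arrays and -2.03 and -2.11 on the MEF arrays. Cdc7 and Dbf4 encode the kinase that starts helicase activity and its activating subunit. Cdc7 had 0.69 and 0.60 on the iPS arrays, the highest iPS mean of the group, and -1.90 and -1.85 on the MEF arrays. Dbf4 had 0.09 and 0.02 on the iPS arrays, the lowest iPS mean of the group and not different from ES cells (0.05 ± 0.05, adjusted p = 0.35, limma), and -1.63 and -1.69 on the MEF arrays. Fainter probes gave smaller MEF ratios for both genes. A second Cdc7 probe stood at -1.20 ± 0.05 in MEFs over ES cells, and a fainter one, not well above background in MEFs, had -0.06 and 0.13 on the iPS arrays and -0.21 and -0.30 on the MEF arrays. A second Dbf4 probe, likewise not well above background in MEFs, had 0.59 and 0.47 on the iPS arrays and -0.51 and -0.54 on the MEF arrays. The MEF signals of these faint probes have only a bound, so no fold is given for them.

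Promoters of the replication genes were read for matches to E2F binding forms. RefSeq promoters (GRCm38.p6, from 250 bases before to 50 after the start, 300 in all) were found for 36 of the 42 genes, and were searched on both strands for TTTGGCGC, TTTCCCGC, TTTCGCGC and TTTGCCGC. A match was present for 13 of these 36 genes (36.1%), against 704 of 27025 genes with a promoter in the table (2.6%), a comparison that did not account for base composition. The genes were Cdc6, Cdt1, Lig1, Mcm3, Mcm5, Mcm6, Mcm7, Orc3l, Pola1, Pold1, Pold3, Pole2 and Rfc3. Of the genes of the helicase and its activation, Mcm2, Mcm10, Cdc45l, Cdc7 and Dbf4 had a promoter without a match. The shorter motif CCAAT was in 20 of the 36 (55.6%), against 41.1% of all genes. Stretches of 60 bases that lie before the start are printed for the genes with an E2F form there, 5′ to 3′ in the gene's direction, with the matched bases in capitals; in Mcm5 and Mcm6 matches on opposite strands overlap:
Mcm5 (chr8:75109344-75109403, plus strand): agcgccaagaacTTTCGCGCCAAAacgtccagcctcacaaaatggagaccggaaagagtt
Mcm6 (chr1:128359768-128359827, minus strand): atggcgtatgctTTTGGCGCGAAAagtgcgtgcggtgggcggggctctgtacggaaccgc
Mcm7 (chr5:138172001-138172060, minus strand): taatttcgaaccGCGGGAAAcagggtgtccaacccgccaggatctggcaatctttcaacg
Cdc6 (chr11:98908001-98908060, plus strand): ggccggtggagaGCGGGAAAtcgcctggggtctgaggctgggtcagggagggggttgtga
Pola1 (chrX:93632246-93632305, minus strand): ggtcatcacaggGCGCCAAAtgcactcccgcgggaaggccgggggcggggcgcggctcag
Orc3l (chr4:34614943-34615002, minus strand): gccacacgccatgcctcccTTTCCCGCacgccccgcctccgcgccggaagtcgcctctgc
Rfc3 (chr5:151651209-151651268, minus strand): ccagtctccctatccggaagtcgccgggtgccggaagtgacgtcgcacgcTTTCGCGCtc

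Counted from the start of transcription, the capitals begin at -153 in Mcm5, at -110 in Mcm6, with a further Mcm6 match at -47, and at -10 in Rfc3. The ratios did not follow the matches in a simple way. Among tested genes, the 12 with an E2F form had a median of 0.32 in iPS over ES cells and -2.29 in MEFs over ES cells, and 9 of them were lower in MEFs. The 21 with a promoter and without such a form had medians of 0.48 and -1.87 in the same comparisons, and 18 of them were lower in MEFs. Orc3l and Rfc3, whose sequences are above, were among the genes not called in MEFs over ES cells. A match is a description of the letters and not a site shown to be bound.

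The polymerase and primase genes were mixed. Of the 6 tested, 4 were lower in MEFs than in ES cells (Prim1, Pold1, Pold2 and Pold3), Prim2 was higher and Pole2 was not called. In iPS over ES cells, 3 were higher (Prim2, Pole2 and Pold1). Medians were 0.98 in iPS over ES cells and -1.27 in MEFs over ES cells. Prim1 and Prim2 encode the small and large subunits of primase, which lays down the RNA primers. Prim1 had 0.68 and 0.65 on the iPS arrays and -2.11 and -2.16 on the MEF arrays. With median centring Prim1 was 1.23 in iPS over ES cells and called. Prim2 (mm8 chr1:33398434-33398493) had 2.63 and 2.74 on the iPS arrays and 1.68 and 1.63 on the MEF arrays. The subunits of the same complex thus lay on opposite sides of ES cells in MEFs, and Prim2 was the single gene of the 38 lowest in ES cells. Prim2 was 3.14-fold higher in MEFs than in ES cells (1.65 ± 0.05) and 6.41-fold higher in iPS than in ES cells (2.68 ± 0.05). In iPS cells over MEFs it stood at 1.03 ± 0.07, and at 0.97 without iPS replicate 2, where it was not called. The gene has 1 probe on the array, so no other probe could be set beside it. No dyes were swapped, so a dye effect particular to this probe would enter both ratios over ES cells, and it was not tested.

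Pold1, Pold2 and Pold3 encode the catalytic subunit and further subunits of polymerase delta. Pold1 had 1.09 and 1.07 on the iPS arrays and -1.32 and -1.28 on the MEF arrays. A second Pold1 probe had 0.93 and 0.87 on the iPS arrays and -1.46 and -1.38 on the MEF arrays, so the iPS call rested on a value just over 2-fold. Pold2 had 0.11 and 0.22 on the iPS arrays, the lowest iPS mean of the group, and -1.23 and -1.26 on the MEF arrays. Its iPS ratio stood at 0.17 ± 0.05. Pole2, the second subunit of polymerase epsilon, had 1.46 and 1.46 on the iPS arrays and -0.88 and -0.94 on the MEF arrays, just short of 2-fold in MEFs. On the processed signals Pole2 was -1.14 in MEFs over ES cells and called.

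Pold3 was read by 3 tested probes that did not give the same iPS ratio. The brightest had 0.88 and 0.88 on the iPS arrays and -2.33 and -2.46 on the MEF arrays, the lowest MEF mean of the group, and 3.27 ± 0.07 in iPS cells over MEFs, the highest. The other two lie 1 base apart on the transcript. Their first 30 bases are shown, with the bases that differ between them in capitals; over the 59 positions they share, 4 bases differ:
A_52_P271244 (mm8 chr7:99957522-99957581, minus strand): cccaaAGGgaagtcacCtggaaacggggca
A_51_P490397 (mm8 chr7:99957523-99957582, minus strand): acccaaGAAgaagtcacGtggaaacggggc

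Counted from the 5′ end of A_51_P490397, the differences are G7A, A8G, A9G and G18C, with the base of A_51_P490397 first. A_52_P271244 had 2.51 and 2.58 on the iPS arrays and -1.28 and -1.21 on the MEF arrays. A_51_P490397 had 0.39 and 0.42 on the iPS arrays and -1.32 and -1.24 on the MEF arrays. The pair therefore gave the same MEF ratio (-1.24 ± 0.05 and -1.28 ± 0.05) and iPS ratios of 2.54 ± 0.05 and 0.41 ± 0.05, a gap many times the difference between replicates. With the probes averaged, Pold3 was 1.28 in iPS over ES cells and called, while by its brightest probe it was not. With median centring the brightest Pold3 probe was 1.30 in iPS over ES cells and called.

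**Figure D3:**
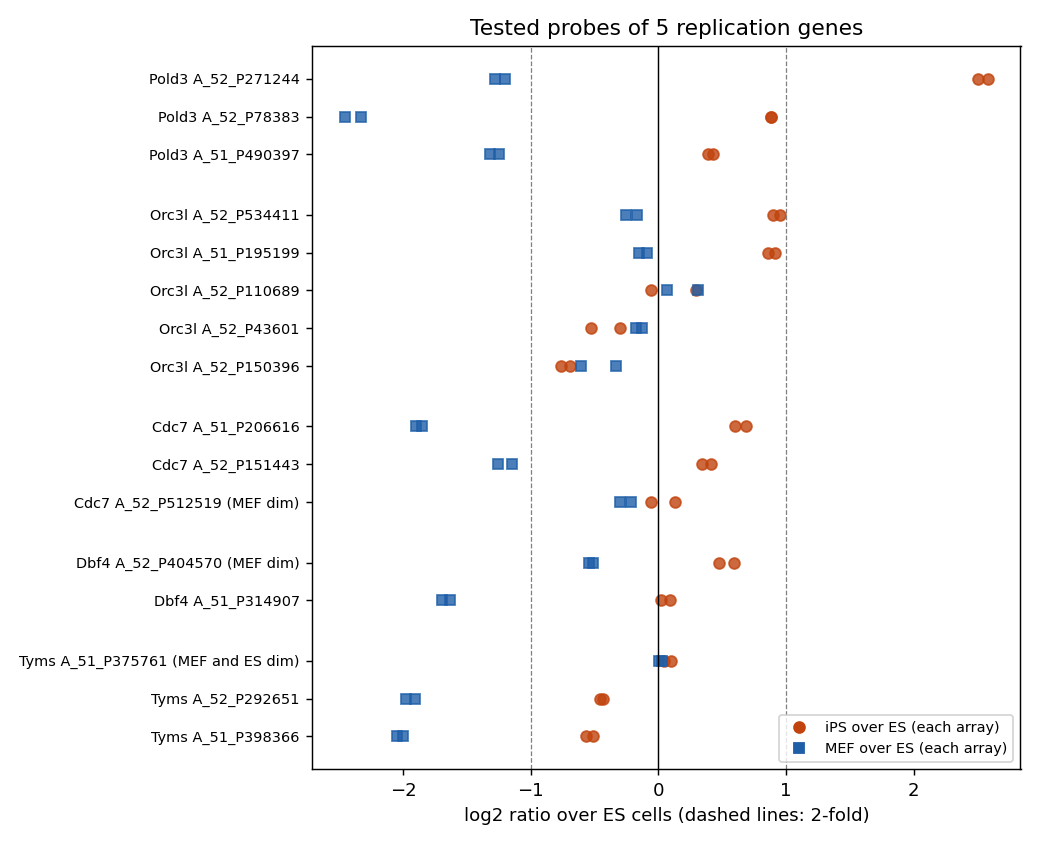
Log2 ratios over ES cells (x axis) of each tested probe (y axis, dim groups named) of the 5 replication genes whose tested probes differ in call or in sign and include a dim, opposite-strand or discordant probe, with 1 point per array (circles, iPS; squares, MEF). For Pold3 the iPS points of 2 probes a base apart lie at 2.51 and 2.58 and at 0.39 and 0.42, with the MEF points of both between -1.32 and -1.21.

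The clamp, its loader and the single-strand binding genes fell in MEFs almost as a whole, with 8 of 9 lower than in ES cells and Rfc3 not called. In iPS over ES cells 0 of 9 were called, while with median centring Pcna (1.32), Rfc5 (1.29), Rpa2 (1.30) and Rpa3 (1.34) were called higher. All 9 were higher in iPS cells than in MEFs. Medians were 0.30 in iPS over ES cells and -1.64 in MEFs over ES cells. Pcna, the sliding clamp, was printed 10 times on each array. Its spots averaged 0.507 ± 0.043 and 0.498 ± 0.051 on the iPS arrays (SD over 10 and 8 spots) and -1.645 ± 0.021 and -1.636 ± 0.029 on the MEF arrays (SD over 10 spots each). Every Pcna spot on an iPS array lay above every spot on a MEF array. The clamp loader genes spread widely. Rfc5 had 0.70 and 0.70 on the iPS arrays and -2.33 and -2.41 on the MEF arrays, with the group's highest ratio in iPS cells over MEFs (3.07 ± 0.07). Rfc4 had -0.14 and -0.13 on the iPS arrays and -2.57 and -2.54 on the MEF arrays, the lowest MEF mean of the group. Rfc1, the large subunit, had -0.41 and -0.39 on the iPS arrays, the group's lowest, and -1.90 and -1.99 on the MEF arrays. Rfc3 had 0.21 and 0.35 on the iPS arrays and -0.66 and -0.84 on the MEF arrays, the highest MEF mean of the group. The small subunits Rfc3, Rfc4 and Rfc5 thus had MEF means of -0.75, -2.56 and -2.37. They were read from different probes, and the 2 probes of Rfc2 also differed in MEFs (-1.38 and -1.04). Differences between subunits and between probes therefore cannot be told apart here. In iPS cells over MEFs Rfc3 stood at 1.03 ± 0.09, and at 0.95 without MEF replicate 2 and 0.96 without iPS replicate 2, where it was not called. Rfc2 was lower in MEFs than in ES cells by both of its probes (-1.38 ± 0.05 and -1.04 ± 0.05).

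Rpa1, Rpa2 and Rpa3 encode replication protein A, which coats single-stranded DNA. Rpa3, its smallest subunit, had 0.89 and 0.92 on the iPS arrays, the highest of the group by the brightest probes, and -1.08 and -1.21 on the MEF arrays. The second Rpa2 probe lay above that, with 0.99 and 0.98 on the iPS arrays. Rpa2 was lower in MEFs than in ES cells by both probes, at -2.09 ± 0.05 and -1.90 ± 0.05, and Rpa1 stood at -1.31 ± 0.05. All 3 subunits were lower in MEFs than in ES cells, though with median centring Rpa1 and Rpa3 were not called there.

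The pair that finishes Okazaki fragments differed in size. Lig1, the DNA ligase that seals the nicks, had 0.11 and 0.16 on the iPS arrays and -2.60 and -2.63 on the MEF arrays. Fen1, the nuclease that removes primer flaps, had 0.98 and 0.88 on the iPS arrays and -0.90 and -0.84 on the MEF arrays. Lig1 was called lower in MEFs than in ES cells and Fen1 was not, but on the processed signals Fen1 was called, at 1.02 in iPS over ES cells and -1.01 in MEFs over ES cells. With median centring Fen1 was 1.24 in iPS over ES cells and called. In the reported fit Lig1 and Fen1 were both higher in iPS cells than in MEFs (2.75 ± 0.07 and 1.80 ± 0.07).

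The nucleotide supply genes were split. Of 4 genes tested, 2 were lower in MEFs than in ES cells and 1 was higher in iPS than in ES cells. Tyms, which makes thymidylate, had -0.57 and -0.51 on the iPS arrays and -2.00 and -2.04 on the MEF arrays. A second bright Tyms probe had -0.45 and -0.43 on the iPS arrays and -1.91 and -1.98 on the MEF arrays, while another, not well above background in MEF or ES cells, lay near 0 on all arrays (0.05 and 0.10 for iPS, 0.01 and 0.03 for MEF) and gave no usable ratio. Dut, which removes dUTP, had 1.30 and 1.27 on the iPS arrays and -1.14 and -1.09 on the MEF arrays, and its second probe gave 1.66 ± 0.05 and -1.21 ± 0.05 in the same comparisons. Dut had the group's highest value in iPS cells over MEFs, 2.40 ± 0.07. Rrm1 and Rrm2 encode the large and small subunits of ribonucleotide reductase. Rrm1 had -0.14 and -0.20 on the iPS arrays and -0.64 and -0.61 on the MEF arrays. Rrm2 had 0.46 and 0.49 on the iPS arrays and -0.40 and -0.40 on the MEF arrays. Rrm1 and Rrm2 were the 2 genes of the 38 not called in iPS cells over MEFs, at 0.46 ± 0.07 and 0.88 ± 0.07. On the processed signals Rrm2 was 1.01 in that comparison and called. For both genes the lower iPS array lay above the higher MEF array, as for 46% of all genes tested.

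Tk1, Pola1, Pola2 and Pole had no tested probe. For each, a probe was left out because a spot had been marked by the scanner software. The remaining probes of Pola2 and Pole were not well above background in any RNA on all its arrays. In all, 10 of 300 spots of the replication genes were marked on the 4 arrays, and 0 of them for anything other than their local background. In a setting chosen after seeing the data, such spots were kept unless their background exceeded 500. Pola1, the catalytic subunit of polymerase alpha, then had 0.33 and 0.34 on the iPS arrays and -1.75 and -1.68 on the MEF arrays. Pole, the catalytic subunit of polymerase epsilon, had 0.48 and 0.45 on the iPS arrays and -1.51 and -1.52 on the MEF arrays. Both were called lower in MEFs than in ES cells in that setting. Pola2, a subunit of polymerase alpha, had 0.58 and 0.61 on the iPS arrays and -0.96 and -0.81 on the MEF arrays. Tk1, the thymidine kinase, had 0.60 and 0.65 on the iPS arrays and -0.88 and -0.80 on the MEF arrays. Neither reached 2-fold over ES cells. With them, 33 of 42 genes were lower and 1 higher in MEFs than in ES cells, 5 were higher in iPS than in ES cells, and 40 were higher in iPS cells than in MEFs.

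Beyond these genes, 48 further replication genes were listed for comparison, among them Gins subunits, checkpoint factors and chromatin assembly factors. In MEFs over ES cells 28 of 48 were lower (58.3%, against 13.6% of all genes) and 1 was higher, with a median of -1.21. In iPS over ES cells 8 were higher (16.7%, against 9.08%) and 0 lower (median 0.42). Between iPS cells and MEFs, 33 were higher in iPS cells (68.8%, against 17%) and 1 was lower (median 1.63). The largest absolute MEF ratios among those called were those of Mcm8, a helicase related to the ring subunits (-2.89 ± 0.05), Timeless, of the fork protection complex (-2.65 ± 0.05), Cdca5, which stabilises cohesin on replicated DNA (-2.61 ± 0.05), and Dscc1, of an alternative clamp loader (-2.56 ± 0.05). In iPS over ES cells the largest were Dna2, a nuclease and helicase for flaps (1.77 ± 0.05), Orc1l, the large subunit of the origin complex (1.77 ± 0.05), Uhrf1, which links replication to maintenance of DNA methylation (1.32 ± 0.05), and Chtf18, of the same clamp loader as Dscc1 (1.11 ± 0.05). In iPS cells over MEFs they were Uhrf1 (3.62 ± 0.07), Dna2 (3.52 ± 0.07), Mcm8 (3.34 ± 0.07) and Dscc1 (3.29 ± 0.07). Pold4, the smallest subunit of polymerase delta, went against the list: it had -0.27 and -0.29 on the iPS arrays and 1.74 and 1.91 on the MEF arrays, and it is the 1 gene higher in MEFs than in ES cells and the 1 gene lower in iPS cells than in MEFs.

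Genes of mitosis and of S phase entry were read for context. Of 24 mitosis genes tested, 19 were lower in MEFs than in ES cells (79.2%, against 13.6% of all genes) and 0 higher. In iPS over ES cells 4 were higher (16.7%, against 9.08%), and 22 were higher in iPS cells than in MEFs (91.7%, against 17%). Their medians were -1.43 (MEF over ES), 0.29 (iPS over ES) and 1.92 (iPS over MEF). Of 16 regulators of S phase entry, 3 were lower and 2 higher in MEFs than in ES cells (18.8% and 12.5%, near the 13.6% and 13.8% of all genes), and 12 of the 16 lay below 0. In iPS over ES cells 2 were higher (12.5%, against 9.08% of all genes) and 0 lower (against 11.8%). Between iPS cells and MEFs 6 were higher in iPS cells (37.5%, against 17%) and 1 was lower (6.25%, against 18.8%). The 3 called lower in MEFs than in ES cells were E2f7 (-1.53), E2f8 (-1.53) and Ccne2 (-1.47), and the 2 called higher were Rbl2 (1.39) and E2f1. E2f1, a transcription factor that drives replication genes, had 1.93 and 2.00 on the iPS arrays and 1.27 and 1.32 on the MEF arrays. It thus lay above ES cells on all 4 arrays. A fainter E2f1 probe gave 0.91 and 0.82 on the iPS arrays and 0.85 and 0.83 on the MEF arrays, above ES cells but short of 2-fold.

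**Figure D4:**
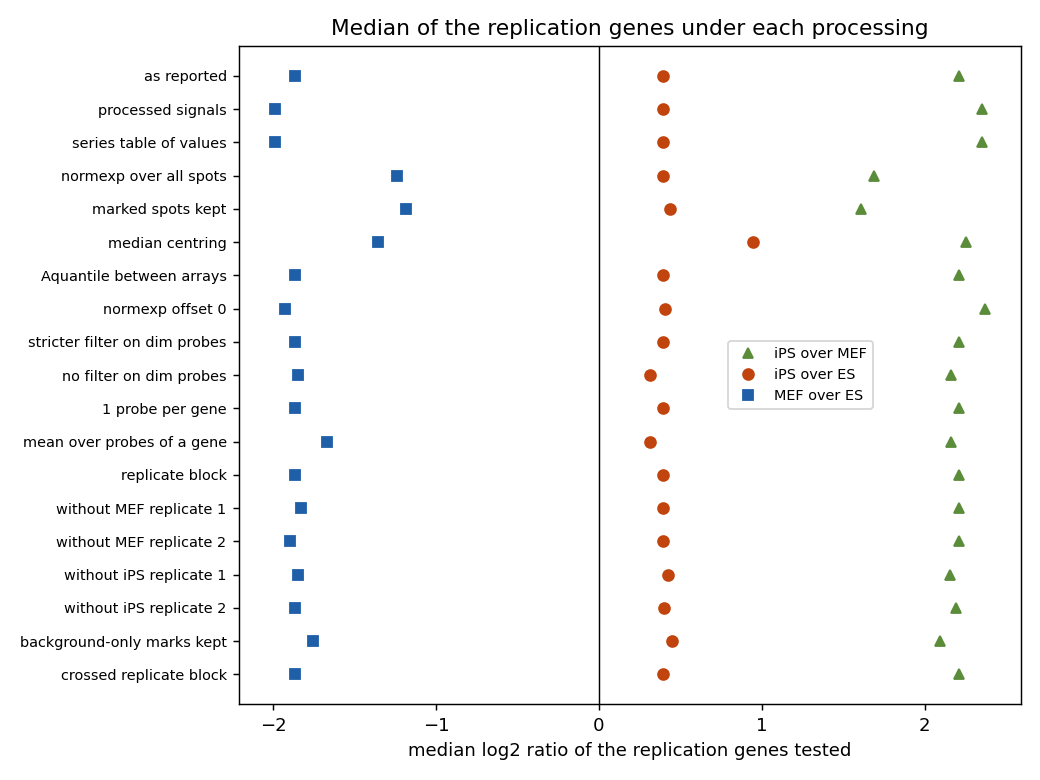
Median log2 ratio (x axis) of the replication genes tested under each processing (y axis), for iPS cells over MEFs (triangles), iPS over ES cells (circles) and MEFs over ES cells (squares). The MEF median lies between -1.99 and -1.18, the iPS over ES median between 0.32 and 0.95, and the iPS over MEF median between 1.61 and 2.37, each on 1 side of 0 throughout.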

How the data were processed

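Per the file headers, the authors read the spots with Agilent Feature Extraction 10.5.1.1, and the deposited scanner files hold a mean intensity per spot and channel with its local background, not normalized. They also hold the software's own log10 ratio (red over green), to which the deposited series table was identical. Probe positions are those of the deposited annotation (mm8). From 1 µg of each RNA, labelled cRNA had been made, per the labels' protocols.

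Spots marked as outliers were left out before the background fit, an order chosen with the counts under both orders known from earlier work. Signals were corrected with normexp (offset 50) and normalized within arrays by loess (span 0.3, controls at weight 0), in limma 3.58.1 under R 4.3.3 with the data.table package (version 1.17.8). A probe was tested where it was well above background in at least 1 RNA on all its arrays and had a value on all 4. One linear model was fitted over the 4 arrays (2 residual degrees of freedom), and the script was tested on simulated data. The arrays shared 1 slide and 1 scan, so position and group cannot be told apart. Members and lists were chosen with earlier results of these data known. In each role group the highest and lowest gene per comparison, genes with differing probes, genes called against their group, and the ring subunits have every array's value. Of the 66 probes, 53 were named through RefSeq, and 53 were tested. Alternatives changed the background correction, the marked spots, the normalization, the filter, the choice of probe and the arrays used.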

Additional observations from a re-analysis of the deposited data

Results flagged for a closer look

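For 31 of the 38 replication genes tested, both iPS arrays lay above 0 and both MEF arrays below 0 in the log2 ratio over ES cells, which is the opposite direction in the 2 groups. The same held for 21.6% of all genes tested. The groups share the ES channel, and the difference between them is the iPS over MEF comparison, in which 36 of the 38 were called.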

How the results depend on the processing

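With normexp over all spots, 0 replication genes were called in MEFs over ES cells (median -1.24; 0 lower, 0 higher) and 14 in iPS cells over MEFs, all higher (median 1.69). The other replication genes then had 0 calls in MEFs over ES cells, 3 in iPS over ES cells and 4 between iPS cells and MEFs, and over all genes 0 were called between MEFs and ES cells (2146 at an unadjusted p under 0.05) and 2150 between iPS cells and MEFs. With marked spots kept, 41 replication genes were tested, and 18688 genes in all. Of the 41, 7 were called lower and 0 higher in MEFs over ES cells (median -1.18). In iPS cells over MEFs 14 were called higher (median 1.61), and the iPS over ES median was 0.44. The other replication genes had 1, 3 and 4 calls, and over all genes 162 were called between MEFs and ES cells and 2391 between iPS cells and MEFs. With median centring, the MEF median was -1.36 and the iPS over ES median 0.95, with 18 replication genes and 19 other replication genes called. The median of all genes moved to 0.18 (MEF over ES) and 0.17 (iPS over ES), and the share of calls that were higher was 69.5% against 50.4% in MEFs over ES cells and 62.5% against 43.5% in iPS over ES cells. The causes of these changes were not tested.

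Smaller shifts of the median were -1.99 and 2.35 (MEF over ES, iPS over MEF) on processed signals and -1.99 and 2.35 on the series table, with 7400 and 7394 genes called in MEFs over ES cells and 6133 and 6119 in iPS over ES cells. They were -1.93 and 2.37 with offset 0, and 0.32 (iPS over ES) without a filter, where 40 genes were tested. With probes averaged they were -1.67 and 0.32 (MEF over ES, iPS over ES). With background-only marks kept, where 42 genes were tested, they were -1.76, 0.45 and 2.10. Leaving out an array in turn gave iPS over ES medians of 0.40 to 0.42 and iPS over MEF medians of 2.15 to 2.21, with 38 to 40 genes tested. No direction of a median or call reversed. A fit with the replicate block called the same 32, 5 and 36 genes as the fit without it, and same-numbered deviations correlated at -0.11. The crossed pairing, added after seeing the data, also called 32, 5 and 36. The number of arrays, 2 per group, limits the precision.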

Other observations

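Prim2 was the 1 replication gene higher than ES cells in both iPS cells and MEFs, and a dye effect particular to its probe was not tested. The genes around Prim2 on mouse chromosome 1 were read (mm8, 1 Mb on each side of the probe), a choice made after its values were seen. Tested probes lay in 11 other genes there, 17 in all. The nearest named gene, Rab23, had -0.25 and -0.17 on the iPS arrays and 0.94 and 0.94 on the MEF arrays by that of its probes with the highest MEF ratio, and neither comparison was called. Bag2, a co-chaperone, had -0.84 and -0.85 on the iPS arrays and 1.48 and 1.39 on the MEF arrays. Of the 17 probes, 1 was called higher in both comparisons over ES cells, that of Imp4, 991 kb away, with 1.14 and 1.19 on the iPS arrays and 1.18 and 0.98 on the MEF arrays. Among replication genes on other lists, Pold4 had the opposite pattern to Prim1: its MEF arrays lay above 0 and its iPS arrays below 0.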
